A study of Mus musculus with 27 samples.

Results

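Collagen and laminin chains are the structural proteins from which basement membranes and fibrillar matrix are assembled. The 55 genes described here were taken from the 37332 genes of the deposited read count table as the protein-coding genes whose GENCODE vM21 symbol is Col, a number, the letter a and a number, or Lam, one of the letters a, b and c, and a digit. They comprise 44 collagen and 11 laminin genes. RNA came from 3 mouse cell types: the E14 embryonic stem cell line (mESC), kept on gelatin with the pluripotency factor LIF, a neural progenitor line (mNPC), kept in DMEM/F12 with B27 lacking vitamin A and with the growth factors EGF and FGF added daily, and primary cortical neurons (mCtx), plated on poly-L-lysine and cultured for 5 days. Each was separated into chromatin-associated, soluble nucleoplasmic and cytoplasmic RNA, with 3 biological replicates per fraction, giving 9 groups and 27 libraries of rRNA-depleted RNA longer than 200 nt. No group carried a treatment or engineered allele in the labels, and strain and age are not given in the sources used here. The mESC and mNPC groups each rest on 1 line, and the mCtx cultures are primary, so they can hold cells other than neurons. The labels call the replicates biological without naming separate cultures or animals, so p-values measure the spread between these libraries, which may be technical. The comparisons ask how much RNA of each chain is present in each cell type and how it is divided between the 3 fractions.

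Collagens are trimers of alpha chains wound into a triple helix, and laminins are cross-shaped heterotrimers of 1 alpha, 1 beta and 1 gamma chain. In a basement membrane the laminin network binds cell-surface integrins and dystroglycan, and a second network of collagen IV, linked to it by nidogen and perlecan, gives it mechanical strength. Fibrillar collagens form the banded fibrils of connective tissue, fibril-associated collagens decorate them, and transmembrane collagens sit in the plasma membrane. In the early embryo, laminin with the alpha1, beta1 and gamma1 chains and collagen IV build the first basement membranes, and in the developing brain such chains underlie the pial surface and the vessels.

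Upstream sequences are printed for 5 genes whose levels set the cell types apart or are shared by all 3, so that the contrasts below can be read beside the DNA. They come from RefSeq on GRCm38.p6, run 5′ to 3′ on the strand of the gene and end before the start of its model in the count table. In GENCODE vM21 Lama2 spans chr10:26980036-27619758, so its printed sequence lies inside that longer model, where it overlaps no annotated exon. Capitals mark a GC box, GGGCGG or its reverse complement CCGCCC. Col4a5, from chrX:141475169-141475384 on the plus strand, and Col4a6, from chrX:141474077-141474326 on the minus strand, belong to a divergent pair on the X chromosome whose gene models lie 1308 bases apart and which was at its highest level in mNPC. Lama5, from chr2:180225860-180226109 on the minus strand, was high in mESC and mNPC and low in mCtx. Lama2, from chr10:27616943-27617192 on the minus strand, reached 5 CPM (the read count scaled to the effective library size) only in mCtx. Lamb1, from chr12:31265043-31265233 on the plus strand, was at 17.6 CPM or more in all 27 libraries.
Col4a5: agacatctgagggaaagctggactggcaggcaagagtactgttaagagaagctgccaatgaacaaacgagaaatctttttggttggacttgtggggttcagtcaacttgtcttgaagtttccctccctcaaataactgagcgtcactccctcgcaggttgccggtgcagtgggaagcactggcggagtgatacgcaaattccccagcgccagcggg
Col4a6: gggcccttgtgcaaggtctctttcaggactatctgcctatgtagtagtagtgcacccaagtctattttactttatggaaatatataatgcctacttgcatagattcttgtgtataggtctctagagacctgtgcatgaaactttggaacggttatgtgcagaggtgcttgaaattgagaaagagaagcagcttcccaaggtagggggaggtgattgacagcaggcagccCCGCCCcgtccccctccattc
Lama5: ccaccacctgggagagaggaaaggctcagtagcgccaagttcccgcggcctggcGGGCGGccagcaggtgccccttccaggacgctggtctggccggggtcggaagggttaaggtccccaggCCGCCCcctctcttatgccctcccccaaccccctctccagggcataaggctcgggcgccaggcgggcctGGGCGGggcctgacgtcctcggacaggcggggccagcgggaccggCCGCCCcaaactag
Lama2: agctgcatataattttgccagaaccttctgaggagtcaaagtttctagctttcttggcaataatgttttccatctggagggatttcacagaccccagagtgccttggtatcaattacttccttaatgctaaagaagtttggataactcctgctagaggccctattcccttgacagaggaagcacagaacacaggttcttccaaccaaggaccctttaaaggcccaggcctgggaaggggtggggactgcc
Lamb1: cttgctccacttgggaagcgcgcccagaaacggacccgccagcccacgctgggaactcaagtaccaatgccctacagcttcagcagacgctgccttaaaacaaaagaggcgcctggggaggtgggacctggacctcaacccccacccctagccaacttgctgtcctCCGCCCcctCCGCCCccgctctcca
The Lama5 sequence held 4 GC boxes at a GC content of 72.4%, and the Lamb1 sequence held 2 at 63.9%. The Col4a6 sequence held 1 at 47.6%, whereas Col4a5 at 52.3% and Lama2 at 47.2% held none. A CCAAT box, CCAAT or ATTGG, occurred once each in Col4a5 and Lamb1, and TATAAA or TTTATA in none of the 5. Over the 250 bases upstream, 24 of 44 promoters of the 40 members in the RefSeq table held a GC box (54.5%), against 32.7% of all 32851 promoters. CCAAT was found in 31.8% of the members' promoters and 33.8% of all, and TATAAA in 11.4% and 12.4%. The motifs were searched on both strands and do not overlap by their letters. A match describes these letters and was not tested as a binding site.

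Each library held between 11249862 and 19871198 counts, and 53 of the 55 genes passed the filter on low counts, as did 18249 genes in all. Col4a3 and Col4a4 did not pass. Levels are in CPM, given for the libraries numbered 1, 2 and 3 in that order, and fold changes are on the log2 scale from edgeR's quasi-likelihood test with p-values adjusted over all genes tested. Because the count table adds up reads over the full span of each gene, nascent and mature transcripts are not told apart, and levels are compared between genes only per kilobase of span or in the authors' TPM. Defining markers followed the labels: Pou5f1 averaged 805 CPM in mESC cytoplasm and had no read in the other cell types, Fabp7 averaged 1741 CPM in mNPC cytoplasm and Tubb3 2087 in mCtx cytoplasm. In mCtx, Fabp7 was still at 508 CPM, while the endothelial markers Cdh5, Cldn5 and Pecam1 were at 0.118, 0 and 1.29 CPM in nucleoplasm. In bulk RNA, fewer cells of a type and less RNA per cell cannot be told apart. Library 1 of mESC nucleoplasm stood apart from libraries 2 and 3 for several of these genes, and results that rest on it are given without it as well. In that library the 6 endothelial markers summed to 414 CPM, against 169 in the lowest of the 3, and most of the sum was Pecam1, at a mean of 245 CPM. The part of these markers in the results was not tested.

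By counts over gene spans, RNA of the 55 genes was most abundant in nucleoplasm and least abundant in cytoplasm in each cell type. In mNPC it made up 0.377 ± 0.0254% of the counts in nucleoplasm, 0.0937 ± 0.00483% in chromatin and 0.0349 ± 0.00524% in cytoplasm (mean ± SD, n = 3). In mESC the shares were 0.302 ± 0.0610%, 0.167 ± 0.0132% and 0.0360 ± 0.00103%, and in mCtx they were 0.0739 ± 0.00173%, 0.0516 ± 0.00318% and 0.0254 ± 0.00108%. By these counts, the 3 libraries of each fraction did not overlap those of the other fractions within any cell type. In the authors' TPM, nucleoplasm was highest in mESC and mNPC, but chromatin was highest in mCtx. There the members' share of TPM was 0.0183, 0.0202 and 0.0191% in chromatin, against 0.0135, 0.0122 and 0.0112% in nucleoplasm. Lamb3, whose TPM and counts disagree, is part of these TPM shares, at 66.4, 79.9 and 65.6 TPM in mCtx chromatin and 14.4, 9.97 and 11.5 in nucleoplasm. Without Lamb3 the chromatin and nucleoplasm libraries of mCtx overlapped in the members' share of TPM. At a mean of 5 CPM or more in at least 1 fraction there were 30 genes in mESC, 24 in mNPC and 28 in mCtx, and 45 in at least 1 of the 3. Among these, the fraction with the highest level was nucleoplasm for 19 of 30 genes in mESC, 21 of 24 in mNPC and 18 of 28 in mCtx, and chromatin for 11, 3 and 9. By counts, cytoplasm was highest for a single case, Col26a1 in mCtx, where the means of chromatin, nucleoplasm and cytoplasm were 13.5, 12.7 and 14.3 CPM. The libraries of the 3 fractions overlapped for that gene, which encodes an emilin-related collagen. In the authors' TPM its cytoplasm was instead lowest in mCtx, at 2.11, 1.98 and 1.58, against 11.6, 16.2 and 16.7 in chromatin and 5.43, 4.07 and 3.89 in nucleoplasm.

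**Figure D1:**
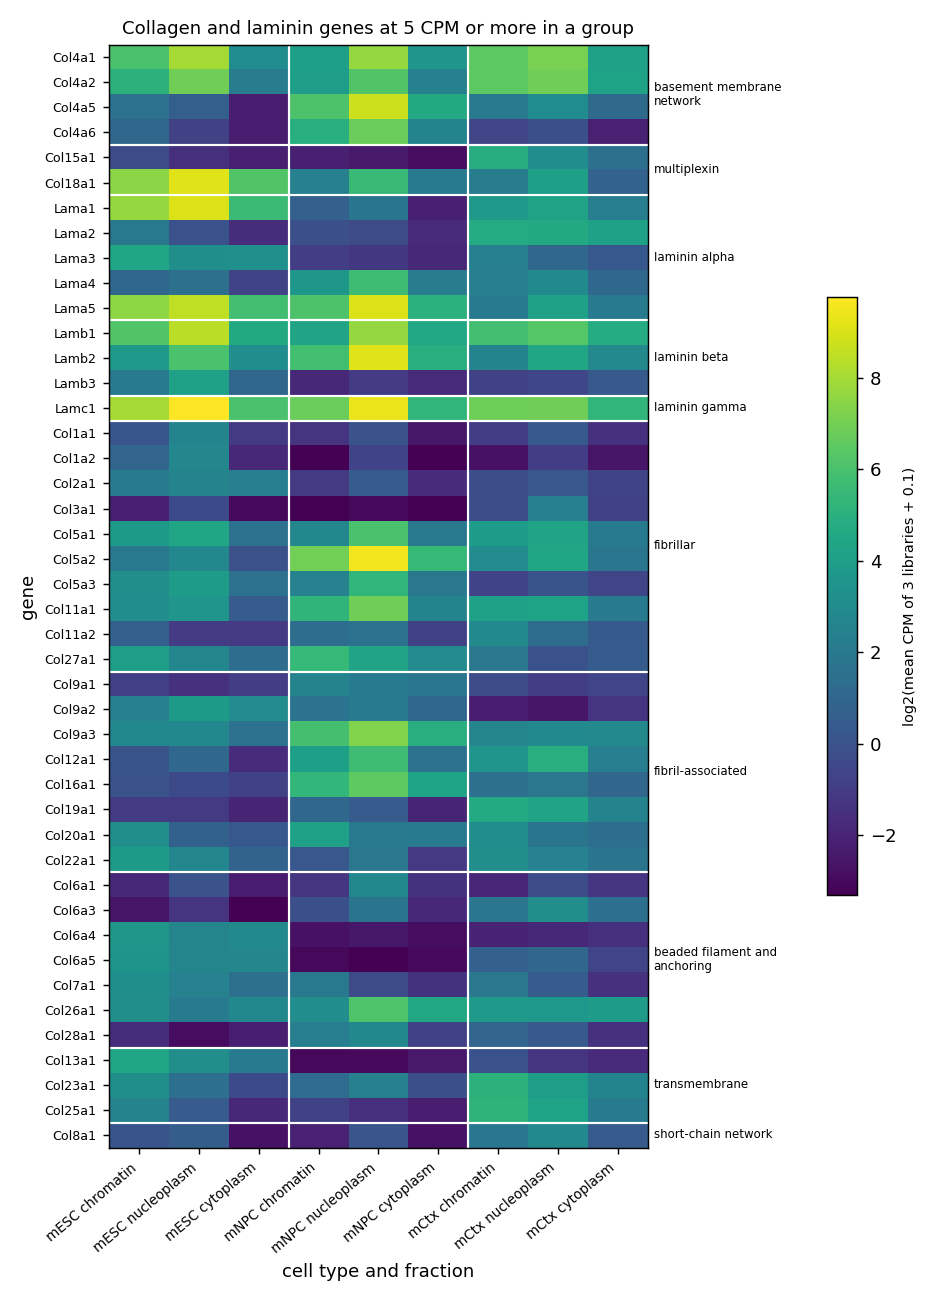
Mean level of 44 genes that reached 5 CPM in at least 1 group, with 1 row per gene grouped by family and 1 column per cell type and fraction (mean of 3 libraries). The colour gives log2(mean CPM + 0.1), from dark (low) to yellow (high). Lamc1, Lamb1, Col4a1 and Col4a2 are present in every column, whereas Lama1, Lama2, Col4a5 and Col4a6 each stand out in 1 cell type.

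The laminin alpha chains, which carry the main cell-binding domains, each had their highest level in a particular cell type. Lama1, the alpha chain of the earliest embryonic laminin, was at 817, 373 and 415 CPM in mESC nucleoplasm, 252, 162 and 198 in chromatin and 61.7, 37.1 and 44.9 in cytoplasm. In mNPC it was at 3.28, 4.34 and 2.41 CPM in nucleoplasm and 0.0526, 0.162 and 0.144 in cytoplasm, and in mCtx at 18.7, 19.1 and 18.8 and 3.75, 5.20 and 5.17. All mESC libraries lay above all mCtx libraries and these above all mNPC libraries, in each fraction. The log2 change from mESC to mNPC was -7.32 ± 0.32 (SE, adjusted p = 5.62e-17) in nucleoplasm and -8.59 ± 0.45 (SE, adjusted p = 2.57e-15) in cytoplasm. From mNPC to mCtx it was 2.49 ± 0.30 (SE, adjusted p = 2.55e-08) and 5.24 ± 0.56 (SE, adjusted p = 4.82e-09). Lama1 is also made by primitive and parietal endoderm, and in mESC nucleoplasm 8 of 9 markers of that lineage were at 1 CPM or more and summed to 171 to 177 CPM per library, with Cubn at 122, Pdgfra at 17.1 and Sox17 at 1.83. In mNPC nucleoplasm 3 of the 9 were, at a sum of 657 to 791 CPM, mostly Pdgfra at 735, with Gata6, Sox17 and Foxa2 at 0 and Cubn at 1.12. In mCtx nucleoplasm 2 of the 9 were, at a sum of 11.2 to 11.6. Their part in the Lama1 level was not tested.

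Lama5, the alpha chain of most mature basement membranes, was at 376, 375 and 332 CPM in mESC nucleoplasm and 459, 645 and 544 in mNPC nucleoplasm, but at 20.4, 15.2 and 17.3 in mCtx nucleoplasm. By counts every mNPC nucleoplasm library was above every mESC one, and every mCtx library was far below both. The authors' TPM as given reversed the order of mESC and mNPC in nucleoplasm. There Lama5 was at 15.3, 19.4 and 16.8 TPM in mESC against 10.1, 8.26 and 10.7 in mNPC. With each library's TPM divided by its median ratio to the mean library, every mNPC nucleoplasm library was again above every mESC one. In chromatin the change from mNPC to mCtx was -4.06 ± 0.25 (SE, adjusted p = 1.3e-13) on the log2 scale and from mESC to mCtx -5.49 ± 0.26 (SE, adjusted p = 3.07e-16). Lama2, the alpha chain of muscle and brain-vessel basement membranes, had the opposite pattern. It was at 25.2, 26.3 and 28.7 CPM in mCtx chromatin, 24.2, 23.6 and 25.2 in nucleoplasm, with 16.2, 18.5 and 18.5 in cytoplasm, against at most 4.05 CPM in any mESC or mNPC library. All 9 mCtx libraries lay above all 18 others, and its change in cytoplasm was 6.33 ± 0.33 (SE, adjusted p = 4.05e-15) from mNPC and 6.21 ± 0.33 (SE, adjusted p = 1.84e-15) from mESC. Mural and fibroblast markers were present at low level in mCtx nucleoplasm: 3 of 5 mural markers at 1 CPM or more summed to 31.5 to 35.3 CPM and 3 of 7 fibroblast or meningeal markers to 15.0 to 16.9, with Lum at 0.498. The same lists summed to 920 to 1398 and 692 to 816 CPM in mNPC nucleoplasm, mostly Cspg4 at 1167 and Pdgfra at 735. In mESC nucleoplasm they summed to 5.17 to 13.1 and 13.2 to 24.8. Their part in the Lama2 level was not tested. Lama4, the alpha chain of vessel and nerve-sheath laminins, was highest in mNPC nucleoplasm at 39.4, 55.7 and 60.2 CPM. Lama3, the epithelial alpha chain, was highest in mESC chromatin at 21.9, 20.6 and 19.5 CPM and at or below 0.637 CPM in mNPC.

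The beta chains Lamb1 and Lamb2 and the gamma chain Lamc1 averaged 5 CPM or more in all 9 groups, and Lamb3 and Lamc3 did not. Lamc1, the gamma chain of most laminins, was at 1082, 771 and 763 CPM in mESC nucleoplasm, 621, 732 and 667 in mNPC nucleoplasm, against 123, 124 and 123 in mCtx nucleoplasm. In cytoplasm it was at 67.8, 57.4 and 67.0 CPM in mESC, 40.5, 36.2 and 39.0 in mNPC, against 36.3, 38.6 and 40.7 in mCtx. The change from mNPC to mCtx in nucleoplasm was -2.45 ± 0.13 (SE, adjusted p = 1.45e-15), and in chromatin, where the libraries held 116, 105 and 109.8 and 113, 117 and 117 CPM, the change was 0.070 ± 0.12 (adjusted p = 0.626). From mESC to mNPC in nucleoplasm it was -0.37 ± 0.12 (SE, adjusted p = 0.00615), and without library 1 of mESC nucleoplasm it was -0.18 (adjusted p = 0.127), which ends the call. Lamb1, the beta chain that pairs with it in the early embryo, was at 407, 325 and 284 CPM in mESC nucleoplasm, 179, 230.0 and 220.2 in mNPC, against 85.1, 78.4 and 77.8 in mCtx. Its cytoplasmic level was 24.7, 25.0 and 24.7 CPM in mESC, 22.1, 20.5 and 24.1 in mNPC, against 28.3, 27.4 and 26.8 in mCtx, and from mNPC to mCtx it rose by 0.31 ± 0.13 (SE, adjusted p = 0.0333), a call that was lost when any of 5 of the 6 libraries was left out (0.25 to 0.33). In nucleoplasm, by contrast, it fell by 1.38 ± 0.12 (SE, adjusted p = 9.37e-11) from mNPC to mCtx. The authors' TPM as given turned the sign of that last difference, to 0.62 on the log2(TPM + 1) scale. With each library's TPM divided by its scale, the sign was that of the counts.

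Lamb2, the beta chain that replaces beta1 in mature and synaptic laminins, was at 572, 619 and 488 CPM in mNPC nucleoplasm, against 87.1, 59.2 and 46.0 in mESC and 20.8, 19.7 and 21.6 in mCtx. No library of mNPC overlapped those of the other cell types, and the change from mESC to mNPC was 3.12 ± 0.19 (SE, adjusted p = 7.89e-14). Lamb3, a beta chain of epithelial laminin, was highest in mESC nucleoplasm, at 40.6, 7.34 and 5.24 CPM, with library 1 the highest of the 3. In mNPC and mCtx it did not pass 1.49 CPM in any library. Lamc3, a gamma chain of nerve and retina, did not pass 1.29 CPM in any library. Per kilobase of gene span, Lamb2 led all 55 genes in nucleoplasm of mNPC at 52.5 CPM per kb and of mCtx at 1.94, and Lamc1 and Lama5 led in mESC nucleoplasm at 7.66 and 7.29. In the authors' TPM the leading genes in nucleoplasm were Lamc1 (70.5 TPM) and Col18a1 (65.6) in mESC, Lamb2 (31.4) and Col5a2 (23.0) in mNPC, and Col4a1 (28.1) and Col4a2 (15.2) in mCtx. Lamb3 had the highest TPM of the 55 genes in mCtx chromatin, 70.6. No mCtx chromatin library held more than 0.612 CPM of it in the counts, so its TPM and its counts disagree. Its model in the count table spans chr1:193301957-193343878, whereas in GENCODE vM21 Lamb3 spans chr1:193207699-193343878. The part of this difference in the disagreement was not tested.

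**Figure D2:**
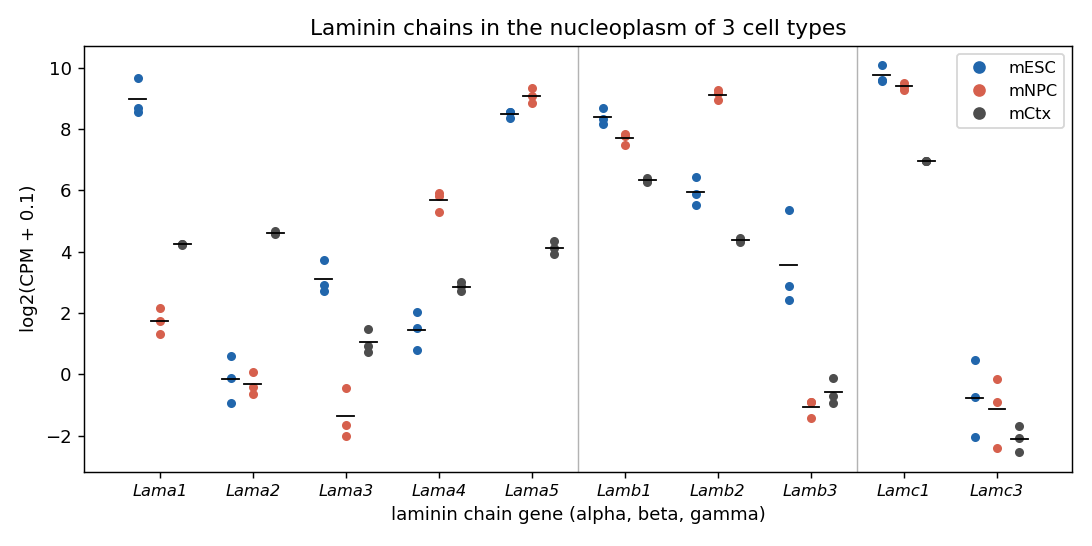
Level of 10 laminin genes in nucleoplasm of the 3 cell types, as log2(CPM + 0.1), with 1 point per library coloured by cell type and a bar at the mean of the 3 log values. Lamc1 is at 123 CPM or more in all 9 libraries, whereas Lama1 is high in mESC, Lama2 in mCtx and Lamb2 in mNPC.

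Of the 6 collagen IV genes, which form the basement membrane network as 3 divergent gene pairs, Col4a1 and Col4a2 were present in all 3 cell types and the X-linked pair was high in mNPC. Col4a1 (chr8:11198423-11312826, minus strand) and Col4a2 (chr8:11312805-11449287, plus strand, mm10) share their promoter region, and their gene models overlap by 22 bases. Col4a1 was at 379, 188 and 195 CPM in mESC nucleoplasm, 209, 214 and 202 in mNPC, against 144, 152 and 128 in mCtx. Col4a2 was at 195, 80.8 and 84.0 CPM in mESC, 77.1, 75.6 and 67.7 in mNPC, against 121, 129.9 and 117 in mCtx. Library 1 was highest for both in mESC. In chromatin both chains had their highest mean in mCtx, where Col4a1 was at 90.1, 85.1 and 86.1 CPM and Col4a2 at 98.4, 89.0 and 81.0, and lowest in mNPC, where Col4a1 was at 18.7, 13.6 and 18.1 and Col4a2 at 17.5, 13.1 and 15.5. Collagen IV is made in quantity by endothelium, among other cells. In mCtx chromatin the 6 endothelial markers summed to 2.61 to 3.06 CPM, with 3 of 6 at 0, against 3.25 to 3.62 in mNPC and 108 to 152 in mESC chromatin. Most of the mESC sum was Pecam1, at a mean of 109 CPM, with Cdh5 at 0.270 and Cldn5 at 0.866. The part of endothelium in the collagen IV levels was not tested. For Col4a1 the chromatin difference from mESC to mCtx, 0.46, was lost when any of 5 of the 6 libraries was left out (0.39 to 0.47) and was -0.33 with total counts. The rise from mNPC to mCtx in chromatin was 2.38 ± 0.22 (SE, adjusted p = 4.19e-10) for Col4a1 and 2.54 ± 0.24 (SE, adjusted p = 4.52e-10) for Col4a2. In nucleoplasm the pair diverged: Col4a2 rose from mNPC to mCtx by 0.74 ± 0.22 (SE, adjusted p = 0.00411), and Col4a1 fell by 0.56 ± 0.20 (SE, adjusted p = 0.0168). The Col4a1 call was lost without library 3 of mCtx nucleoplasm (-0.49, adjusted p = 0.0667) and was 1.58 by log2(TPM + 1), the opposite sign. With each library's TPM divided by its scale, the sign of Col4a1 was that of the counts. The fall of Col4a2 from mESC to mNPC in nucleoplasm, -0.71 ± 0.22 (SE, adjusted p = 0.00514), became -0.16 (adjusted p = 0.335) without library 1 of mESC nucleoplasm.

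Because 2 chains of Col4a1 assemble with 1 of Col4a2, the ratio of the genes per kilobase of span was set out by group. The median ratio over 3 libraries was 2.27 (2.02 to 2.41) in mESC chromatin, 2.76 (2.31 to 2.77) in nucleoplasm and 2.13 (2.07 to 2.67) in cytoplasm, with the lowest and highest library in parentheses. In mNPC it was 1.27 (1.23 to 1.39), 3.38 (3.23 to 3.55) and 2.44 (2.31 to 3.02). In mCtx it was 1.14 (1.09 to 1.27), 1.40 (1.31 to 1.42) and 1.14 (1.03 to 1.15). By counts, every nucleoplasm library of mNPC and mCtx had a higher ratio than every chromatin library, while in mESC the ranges overlapped. All 9 mCtx libraries lay below all 9 of mESC. In the authors' TPM the order of the 2 nuclear fractions was kept in mNPC and reversed in mCtx, and mCtx overlapped mESC. In mCtx chromatin Col4a1 was at 23.75, 23.74 and 24.22 TPM and Col4a2 at 9.5, 6.21 and 6.47. In mCtx nucleoplasm they were at 28.51, 29.36 and 26.37, and at 16.43, 16.93 and 12.15. The ratios by counts are descriptive, include introns and rest on as few as 55 reads of a gene in a cytoplasm library.

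The X-linked pair, Col4a5 (chrX:141475385-141689234, plus strand) and Col4a6 (chrX:141165403-141474076, minus strand), encodes the chains of the second collagen IV network. Col4a5 was at 495, 462 and 352 CPM in mNPC nucleoplasm, 71.5, 70.0 and 66.0 in chromatin and 29.7, 23.6 and 20.7 in cytoplasm, and Col4a6 at 124, 131 and 80.0 in nucleoplasm, 29.6, 33.7 and 27.4 in chromatin and 7.67, 6.36 and 3.82 in cytoplasm. In nucleoplasm of mESC Col4a5 was at 3.53, 0.502 and 0.425 CPM and in mCtx at 9.06, 8.71 and 6.45, and Col4a6 did not pass 3.08 CPM in any library of either. All mNPC libraries lay above all others in each fraction for both genes. The change from mESC to mNPC in nucleoplasm was 8.11 ± 0.41 (SE, adjusted p = 1.52e-15) for Col4a5, the largest rise there among the genes at 5 CPM or more, and 7.79 ± 0.36 (SE, adjusted p = 1.78e-16) for Col4a6. Without library 1 of mESC nucleoplasm the Col4a5 value was 9.85. From mNPC to mCtx it was -5.76 ± 0.35 (SE, adjusted p = 6.91e-14) and -7.07 ± 0.34 (SE, adjusted p = 4.26e-16). Col4a5 and Col4a6 each overlap another annotated gene on the same strand, and how the counting treated such reads is not given in the sources used here. Col4a3 and Col4a4, the kidney and lens chains, stayed below 1 CPM in all 27 libraries.

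**Figure D3:**
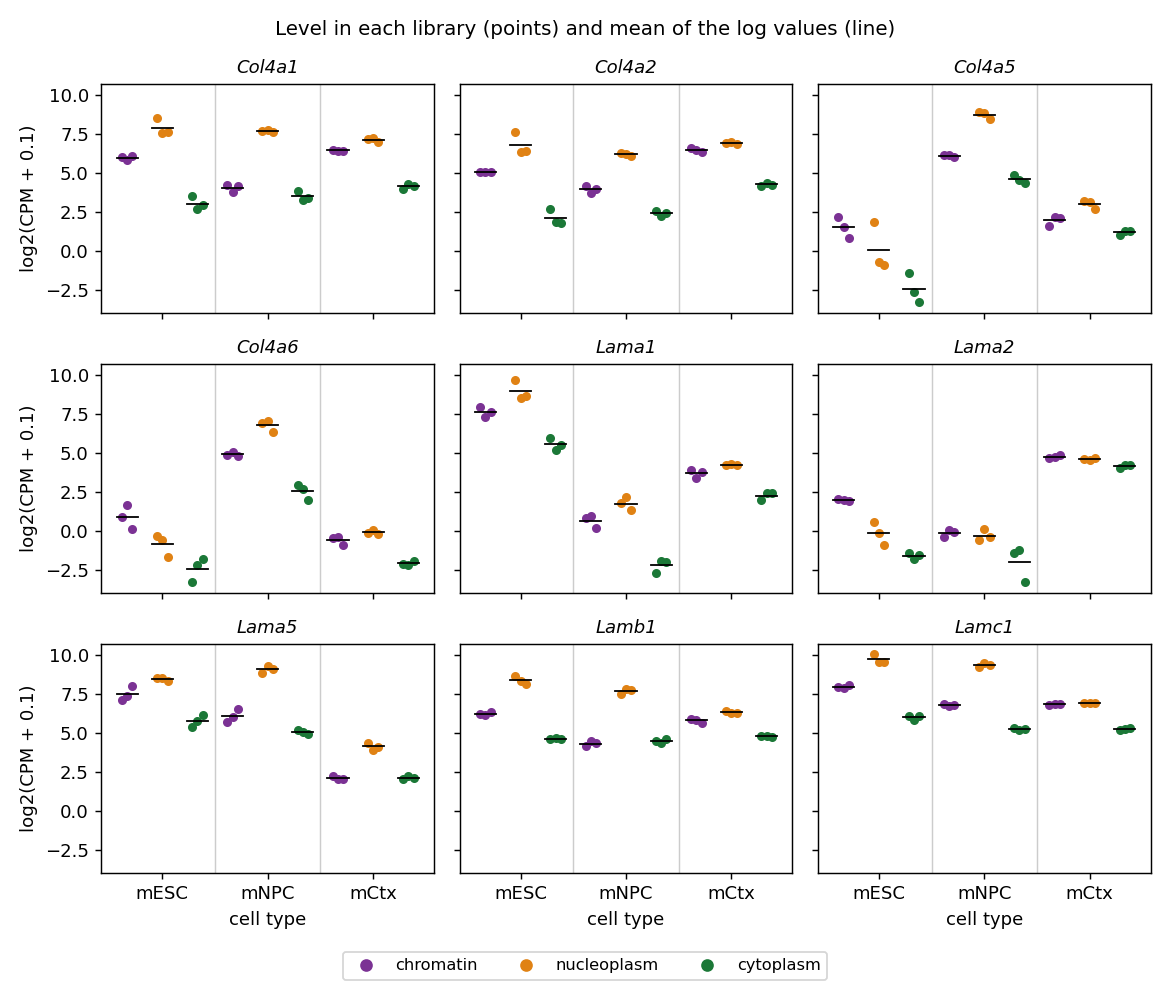
Level of 9 basement membrane genes in every library, as log2(CPM + 0.1), with 1 panel per gene, the 3 cell types on the horizontal axis, 1 point per library coloured by fraction and a bar at the mean of the 3 log values. Library 1 of mESC nucleoplasm lies above libraries 2 and 3 for Lama1, Col4a1 and Col4a2, and the Col4a5 and Col4a6 points of mNPC stand above those of both other cell types in every fraction.

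Col18a1, a basement membrane collagen whose end fragment is endostatin, was at 426, 718 and 559.8 CPM in mESC nucleoplasm, 41.5, 59.8 and 34.6 in mNPC, against 18.1, 16.9 and 15.9 in mCtx. In each fraction all mESC libraries lay above all others, and library 1 was the lowest of the 3 in each mESC fraction, at 78.6 CPM in chromatin against 239 and 222. From mESC to mCtx the change was -5.07 ± 0.33 (SE, adjusted p = 1.86e-13) in nucleoplasm and -5.49 ± 0.39 (SE, adjusted p = 6.28e-13) in cytoplasm. Col15a1, the other collagen of this family, was present only in mCtx at 5 CPM or more, with 31.0, 28.4 and 25.7 CPM in chromatin, against 7.32, 9.14 and 9.06 in nucleoplasm and only 2.50, 3.11 and 2.58 in cytoplasm. Its change from mESC to mCtx in chromatin was 5.30 ± 0.44 (SE, adjusted p = 2.75e-11), and 5.97 without library 1 of mESC chromatin.

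Among the 11 fibrillar collagens, Col5a2 and Col11a1 had the highest group means in the authors' TPM, 23.0 and 3.34, both in mNPC nucleoplasm. The highest group means of Col1a1, Col1a2 and Col3a1 were 1.14, 0.69 and 1.31 TPM, against 1.75 for Col5a1 and 1.33 for Col5a3. Col5a2, a chain of the collagen V that starts fibril assembly, was at 774, 724 and 710.3 CPM in mNPC nucleoplasm, 129, 125 and 130.1 in chromatin and 55.0, 36.7 and 41.0 in cytoplasm. In nucleoplasm of mESC it was at 8.58, 6.34 and 5.38 CPM and of mCtx at 21.6, 21.7 and 18.1, with no overlap between any of the 3 cell types. Its rise from mESC to mNPC was 5.07 ± 0.20 (SE, adjusted p = 9.84e-18) in chromatin and 5.69 ± 0.24 (SE, adjusted p = 2.45e-17) in cytoplasm, and its fall from mNPC to mCtx in cytoplasm was -3.68 ± 0.20 (SE, adjusted p = 7.21e-15). Col11a1, a chain of cartilage and minor fibrils, was at 133, 132 and 97.7 CPM in mNPC nucleoplasm, against 18.7, 18.8 and 19.9 in mCtx. Col5a3, another collagen V chain, was at 43.3, 42.3 and 33.1 CPM in mNPC nucleoplasm, against 1.16, 1.07 and 0.686 in mCtx, a change of -5.34 ± 0.33 (SE, adjusted p = 6.63e-14). Col27a1, a long fibrillar chain, was highest in mNPC chromatin, at 43.6, 41.9 and 42.8 CPM. The summed fibroblast and mural lists were also highest in mNPC nucleoplasm, each mostly through a single gene. There 3 of 7 fibroblast or meningeal markers were at 1 CPM or more and summed to 692 to 816 CPM, mostly Pdgfra at 735, with Lum at 0 and Dcn at 0.0732. Of the 5 mural markers, Cspg4 alone passed 1 CPM, at 1167, and Rgs5 and Pdgfrb were at 0.865 and 0.876. Their part in the results was not tested.

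The chains of collagens I and III build the fibrils of skin, bone and vessel walls. Col1a1 was at 11.7, 4.58 and 1.28 CPM in mESC nucleoplasm and Col1a2 at 14.4, 3.83 and 1.77, with library 1 the highest for both. Outside mESC no library held more than 1.36 CPM of either. Col3a1 was at 5.15, 4.86 and 5.35 CPM in mCtx nucleoplasm and did not pass 1.35 CPM in any other nucleoplasm library. Col1a2 had no read in the 6 chromatin and cytoplasm libraries of mNPC, and Col3a1 none in the same 6. With 3 reads as the floor in each library, Col1a2 was by counts at least 8.92-fold higher in mESC than in mNPC chromatin. Col3a1 was by counts at least 3.63-fold higher in mCtx than in mNPC chromatin. In the authors' TPM these Col3a1 libraries overlapped, at 0.35, 0.14 and 0.19 in mCtx chromatin and 0.04, 0.12 and 0.44 in mNPC chromatin. The floors and folds cover only the counting error of the group without reads, and take the mean of the other group as measured.

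Among the fibril-associated and transmembrane collagens, Col16a1 and Col9a3 were highest in mNPC and Col19a1, Col23a1 and Col25a1 in mCtx. Col16a1, which is found beside fibrils and basement membranes, was at 84.1, 113 and 82.4 CPM in mNPC nucleoplasm, 1.23, 0.314 and 0.425 in mESC and 3.77, 3.57 and 3.50 in mCtx, and its chromatin level rose from mESC to mNPC by 5.44 ± 0.29 (SE, adjusted p = 5.66e-15). Col9a3, a chain of cartilage collagen IX, was at 168, 161 and 135 CPM in mNPC nucleoplasm, against 7.54, 7.57 and 7.14 in mCtx. Col19a1, a basement-membrane-zone collagen that neurons can make, was at 22.8, 25.0 and 28.2 CPM in mCtx chromatin and 6.63, 5.02 and 5.64 in cytoplasm, and did not pass 2.47 CPM in any other cell type. Its change in cytoplasm was 5.14 ± 0.41 (SE, adjusted p = 1.55e-11) from mNPC and 5.15 ± 0.41 (SE, adjusted p = 6.72e-12) from mESC. Col25a1, a transmembrane collagen known from neurons, was at 37.0, 36.8 and 37.3 CPM in mCtx chromatin and 19.4, 20.5 and 18.6 in nucleoplasm, a change from mNPC of 6.24 ± 0.42 (SE, adjusted p = 6.1e-13) and 6.32 ± 0.48 (SE, adjusted p = 6.1e-12). The nucleoplasm value was 7.37 without library 1 of mNPC nucleoplasm. Col23a1, another transmembrane collagen, was at 35.0, 33.7 and 34.2 CPM in mCtx chromatin and 5.94, 6.21 and 5.40 in cytoplasm, where it rose from mNPC by 2.89 ± 0.41 (SE, adjusted p = 5.7e-07). Col13a1, a transmembrane collagen of the neuromuscular synapse, was instead highest in mESC, at 18.6, 29.3 and 15.6 CPM in chromatin, and 2 of 3 mNPC chromatin libraries held no read of it.

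Of the 9 beaded-filament, anchoring and related collagens, Col6a4 and Col6a5, alternative chains of collagen VI, and Col7a1, the anchoring fibril collagen, reached a mean of 5 CPM in mESC alone. Col6a5 was at 4.21, 5.40 and 8.50 CPM in mESC nucleoplasm and had no read in the 3 mNPC nucleoplasm libraries, which makes it at least 22.1-fold higher in mESC at a floor of 3 reads per library. Col6a4 was at 14.9, 9.92 and 11.7 CPM in mESC chromatin and 0, 0.147 and 0.262 in mCtx, a change of -6.38 ± 0.53 (SE, adjusted p = 3.46e-11), and -7.11 without library 3 of mCtx chromatin. Col6a3, a main collagen VI chain, was at 8.19, 8.93 and 8.72 CPM in mCtx nucleoplasm and 0.280, 0.439 and 0.142 in mESC, and rose by 4.85 ± 0.35 (SE, adjusted p = 4.96e-12). Col26a1 was at 68.2, 76.4 and 71.1 CPM in mNPC nucleoplasm, 6.78, 3.39 and 2.20 in mESC and 14.4, 12.4 and 11.3 in mCtx. Col28a1, a collagen of nerve sheaths, was at 6.37, 5.00 and 8.90 CPM in mNPC nucleoplasm and had no read in 2 of 3 mESC nucleoplasm libraries. The 7 genes that stayed under 4 CPM in every library were Col10a1, Col14a1, Col24a1, Col4a3, Col4a4, Col6a6 and Lamc3.

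Counted over all 53 genes tested, the comparison between cell types with the widest split of higher and lower genes was from mESC to mNPC in chromatin. The percentages in parentheses are the share of all genes tested that passed in that direction. From mESC to mNPC, 15 of 53 genes were higher (33.8%) and 33 lower (42.7%) in chromatin, 21 were higher (35.7%) and 23 lower (41.5%) in nucleoplasm, and 15 were higher (36.5%) and 21 lower (39.4%) in cytoplasm. In either direction 48, 44 and 36 of the 53 passed in chromatin, nucleoplasm and cytoplasm, against 76.5%, 77.2% and 76% of all genes. The chromatin median was -1.44 against -0.18 over all genes. From mNPC to mCtx, 23 of 53 genes were higher (30.2%) and 14 lower (39.2%) in chromatin, 19 were higher (36.9%) and 22 lower (34.9%) in nucleoplasm, and 26 were higher (32.6%) and 15 lower (33.4%) in cytoplasm. In either direction 37, 41 and 41 of the 53 passed in chromatin, nucleoplasm and cytoplasm, against 69.4%, 71.8% and 66% of all genes. The cytoplasmic median was 0.97 against 0.00. From mESC to mCtx, 20 of 53 genes were higher (33%) and 24 lower (47.4%) in chromatin, 19 were higher (38.8%) and 25 lower (43.4%) in nucleoplasm, and 22 were higher (40.1%) and 18 lower (41.6%) in cytoplasm. In either direction 44, 44 and 40 of the 53 passed in chromatin, nucleoplasm and cytoplasm, against 80.3%, 82.2% and 81.6% of all genes. The members' share lay furthest above that of all genes for lower levels in mNPC chromatin than in mESC, and for higher levels in mCtx chromatin and cytoplasm than in mNPC. With total counts in place of the trimmed-mean scaling, the chromatin splits became 20 higher and 20 lower from mNPC to mCtx, and 12 higher and 27 lower from mESC to mCtx. The authors' TPM gave fewer calls in cytoplasm, 13 for mNPC to mCtx and 16 for mESC to mCtx on the log2(TPM + 1) scale, against 41 and 40 by counts. With each library's TPM divided by its median ratio to the mean library, 5 of 50 members were higher and 11 lower from mNPC to mCtx. There 11292 of all 31006 genes tested passed. From mESC to mCtx 7 were higher and 12 lower, and 15124 of all genes passed. Among the 42 genes at 5 CPM or more in nucleoplasm, 17 were highest in mESC, 16 in mNPC and 9 in mCtx, and 11 reached 5 CPM in all 3 cell types.

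Within each cell type, many more of the 53 genes were higher than lower in nucleoplasm relative to cytoplasm. In mESC, 36 were higher (29.9% of all genes tested) and 0 lower (33.2%), with a median log2 fold change of 2.28 against 0.00 over all genes. An all-gene median of 0.00 falls on genes without a read in either group, whose fitted change is 0. In mNPC, 36 were higher (22.6%) and 0 lower (27.5%), with a median of 2.69 against 0.00. In mCtx, 31 were higher (29.6%) and 1, Col9a2, lower (28.6%), with a median of 1.55 against 0.00. In either direction 36, 36 and 32 of the 53 passed in mESC, mNPC and mCtx, against 63.1%, 50.1% and 58.2% of all genes. Of the 53 genes, 20 were called higher in nucleoplasm in all 3 cell types, against 7.75% of all genes tested. They include Col4a1, Col4a2, Col4a5, Col4a6, Lama1, Lama4, Lama5, Lamb1, Lamb2 and Lamc1, so 4 of 4 tested collagen IV genes and 6 of 11 laminin genes. On the log2(TPM + 1) scale the counts were 20 higher and 1 lower in mESC, 20 higher and 0 lower in mNPC and 28 higher and 0 lower in mCtx.

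By role, the genes higher in nucleoplasm than in cytoplasm in mESC, mNPC and mCtx were 4, 4 and 4 of 5 laminin alpha chains and 3, 2 and 2 of 3 beta chains. Of the collagens they were 4, 4 and 4 of 4 tested chains of the basement membrane network, 8, 9 and 7 of 11 fibrillar, 4, 6 and 3 of 9 fibril-associated, 3, 1 and 2 of 4 transmembrane, 1, 1 and 2 of 2 multiplexin and 2, 2 and 2 of 3 short-chain collagens, and 5, 6 and 4 of 9 of the beaded-filament and anchoring set. The gamma chain Lamc3 did not pass in any of the 3 cell types. Of the alpha chains, Lama3 passed in mCtx and not in mESC or mNPC, and Lama2 passed in mESC and mNPC and not in mCtx.

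Among genes at 5 CPM or more, the largest differences between nucleoplasm and cytoplasm in mESC were Col1a2 with 5.08 ± 0.71 (SE, adjusted p = 1.85e-06), Col4a1 with 4.94 ± 0.25 (SE, adjusted p = 6.55e-15) and Col4a2 with 4.77 ± 0.27 (SE, adjusted p = 6.06e-14). Without library 1 of mESC nucleoplasm the Col1a2 value was 3.82 and without library 1 of mESC cytoplasm 5.72, and libraries 2 and 3 of nucleoplasm were each under 5 CPM. The collagen IV chains were at 11.1, 6.19 and 7.45 CPM and 6.25, 3.57 and 3.33 CPM in mESC cytoplasm. In mNPC the leading genes were Col6a1, a main collagen VI chain, with 4.52 ± 0.45 (SE, adjusted p = 4.1e-09), Col11a1 with 4.37 ± 0.19 (SE, adjusted p = 9.67e-16) and Col4a6 with 4.21 ± 0.27 (SE, adjusted p = 7.47e-13). Col6a1 was at 7.92, 8.09 and 4.31 CPM in nucleoplasm and 0.420, 0.270 and 0.144 in cytoplasm there. In mCtx they were Col3a1 with 3.39 ± 0.56 (SE, adjusted p = 1.68e-05), Col18a1 with 3.34 ± 0.39 (SE, adjusted p = 3.99e-08) and Col4a1 with 2.99 ± 0.23 (SE, adjusted p = 1.68e-11). For Lamc1 the change was 3.77 ± 0.13 in mESC, 4.13 ± 0.14 in mNPC and 1.68 ± 0.12 in mCtx, and for Lamb1 3.77 ± 0.13, 3.24 ± 0.13 and 1.55 ± 0.12, all called. Col9a2, a cartilage collagen IX chain, was higher in nucleoplasm in mESC (0.82 ± 0.24) and mNPC (0.90 ± 0.28) and lower in mCtx. Its mCtx libraries held only 0.0725, 0.0714 and 0.0686 CPM in nucleoplasm and 0.375, 0.358 and 0.157 in cytoplasm, which is 3 reads against 14 and a ratio of 0.230 with an exact 95% binomial interval of 0.0424 to 0.825 for counting error. The mCtx call was lost without library 1 or library 2 of cytoplasm and the mNPC call without library 3 of cytoplasm (0.73). On the log2(TPM + 1) scale the difference was 0.014 in mCtx, opposite in sign to the counts, and 0.011 in mESC, where it did not pass.

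Chromatin was also richer than cytoplasm in RNA of these genes. In mESC, 41 of 53 genes were higher in chromatin (44.6%) and 1 lower (32.9%), with a median of 1.75 against 0.36 over all genes. In mNPC, 28 were higher (37%) and 1, Col26a1, lower (32.5%), with a median of 1.08 against 0.056. In mCtx, 28 were higher (35.6%) and 0 lower (37.6%), with a median of 1.18 against 0.00, and total-count scaling gave 21 higher and 3 lower. In either direction 42, 29 and 28 of the 53 passed in mESC, mNPC and mCtx, against 77.5%, 69.5% and 73.3% of all genes. Among genes at 5 CPM or more, the largest differences were Col25a1 in mESC with 4.96 ± 0.50 (SE, adjusted p = 1.46e-09), Col11a1 in mNPC with 2.71 ± 0.18 (SE, adjusted p = 5.74e-13) and Col15a1 in mCtx with 3.37 ± 0.39 (SE, adjusted p = 1.26e-08). The gene lower in mESC chromatin was Col9a2, at 5.17, 5.48 and 4.83 CPM in chromatin and 6.68, 9.81 and 7.15 in cytoplasm (-0.61 ± 0.25). That call was lost without library 1 or 3 of chromatin or library 2 of cytoplasm, at -0.61, -0.56 and -0.43. Col26a1 in mNPC, at 7.95, 6.30 and 10.7 CPM in chromatin and 22.3, 17.2 and 29.9 in cytoplasm, fell by 1.48 ± 0.31 (SE, adjusted p = 0.000129), and by log2(TPM + 1) it was 0.15.

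**Figure D4:**
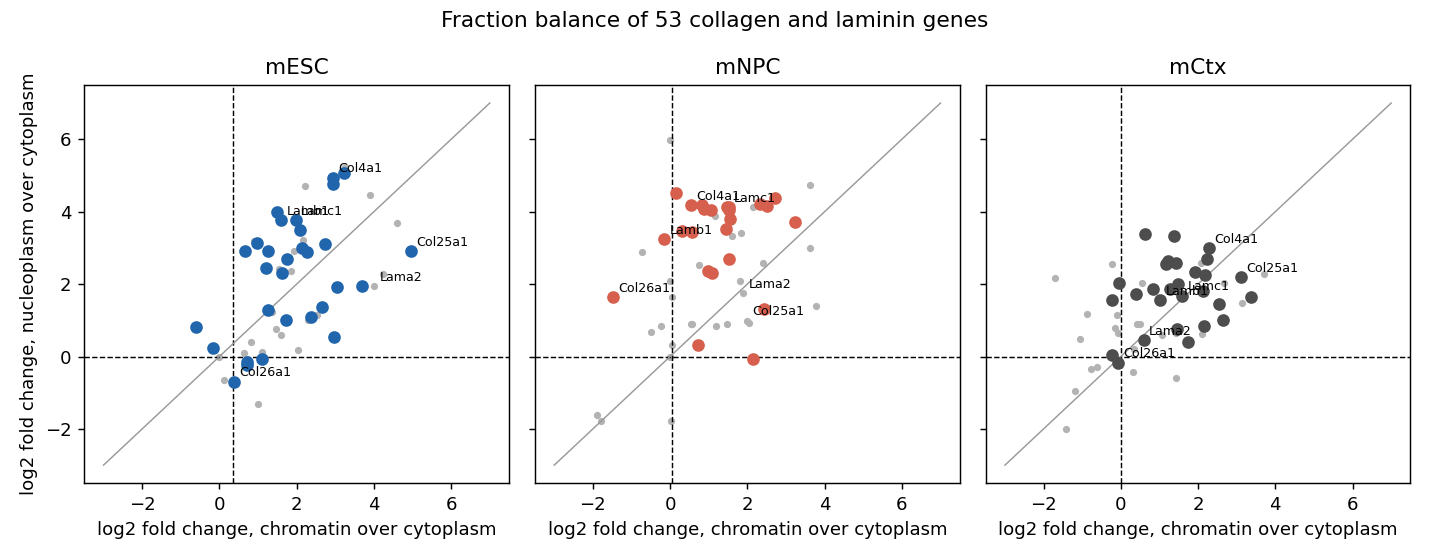
Log2 fold change of nucleoplasm over cytoplasm against chromatin over cytoplasm for the 53 genes tested, with 1 panel per cell type, log2 scales on both axes, large coloured points for genes at 5 CPM or more in that cell type and grey points for the rest, dashed lines at the median of all genes tested and a diagonal of equality. Most coloured points lie above 0 on both axes, and in mNPC most lie on the nucleoplasm side of the diagonal.

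Between the 2 nuclear fractions the members leaned to nucleoplasm in mNPC and were split in mESC and mCtx. The difference between cell types in this contrast was not tested. In mNPC, 29 genes were higher in nucleoplasm than in chromatin (32.5%) and 3 lower (33.5%), with a median of 1.57 against 0.00 over all genes. In mESC, 21 were higher (30%) and 17 lower (36.3%), and in mCtx 14 were higher (30.6%) and 10 lower (26.5%), with medians of 0.036 and 0.41. In either direction 38, 32 and 24 of the 53 passed in mESC, mNPC and mCtx, against 66.3%, 66.1% and 57.1% of all genes. These splits moved with the scaling. Total counts gave 13 higher and 23 lower in mESC, 25 higher and 6 lower in mNPC and 21 higher and 7 lower in mCtx, and DESeq2 gave 11 higher and 12 lower in mCtx. Total-count scaling moved the median of all genes from -0.16 to -0.72 in mESC. On the log2(TPM + 1) scale the splits were 7 higher and 18 lower, 14 higher and 8 lower, and 11 higher and 17 lower. By counts, 9 genes were higher in nucleoplasm in all 3 cell types, Col12a1, Col18a1, Col4a1, Col5a2, Col6a1, Col6a3, Lama5, Lamb1 and Lamb2, and 3 were lower, Col20a1, Col27a1 and Col7a1, against 18.3% and 17% of all genes tested. The mCtx call of Col20a1 (-1.35) was lost when any of 5 of the 6 libraries was left out, at -1.39 to -1.23. In mCtx, log2(TPM + 1) gave the opposite sign for Col18a1 (-0.072) and Lama5 (-0.37).

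Lamb1 rose from chromatin to nucleoplasm by 2.17 ± 0.12 (SE, adjusted p = 5.69e-14) in mESC and 3.40 ± 0.13 (SE, adjusted p = 3.55e-17) in mNPC, and by 0.52 ± 0.12 (SE, adjusted p = 0.000612) in mCtx, where log2(TPM + 1) gave -0.37. Among genes at 5 CPM or more, Col6a1 and Col4a1 had the largest rises in mNPC, 4.37 ± 0.45 (SE, adjusted p = 2.57e-09) and 3.63 ± 0.23 (SE, adjusted p = 2.01e-13). Col20a1, a fibril-associated collagen, was on the chromatin side. It was at 17.5, 15.4 and 20.5 CPM in mNPC chromatin and 3.28, 4.05 and 4.01 in nucleoplasm, a change of -2.23 ± 0.52 (SE, adjusted p = 0.000502). The 4 genes that changed in opposite directions in mESC and mNPC were Col4a6, by -1.95 ± 0.43 and 1.88 ± 0.24, Col23a1 by -1.76 ± 0.34 and 1.16 ± 0.36, Col26a1 by -1.08 ± 0.33 and 3.12 ± 0.32, and Col22a1, a collagen of tissue junctions, by -1.11 ± 0.43 and 1.72 ± 0.54. Col23a1 was -2.46 in mESC without library 1 of nucleoplasm. It fell from chromatin to nucleoplasm in mCtx too, with -1.09 ± 0.30, where log2(TPM + 1) gave -0.17. The mESC call of Col26a1 was lost without library 1 of chromatin (-0.76) and was -1.66 without library 1 of nucleoplasm. That of Col22a1 was lost without library 1 of chromatin (-0.60), or library 2 (-0.94) or 3 (-0.72) of nucleoplasm, and was -1.94 without library 1 of nucleoplasm. By log2(TPM + 1) Col22a1 was at 0.18 in mESC and -0.10 in mNPC, and Col23a1 at -0.31 in mNPC, each opposite in sign to the counts.

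Gene span, which sets how much intron the counts cover, ran from 7105 bases for Col10a1 to 635655 bases for Lama2. Across the 53 genes, Spearman's rho between span and the log2 fold change of chromatin over cytoplasm was 0.50, 0.34 and 0.60 in mESC, mNPC and mCtx, and over 15342 protein-coding genes it was 0.58, 0.55 and 0.68. For nucleoplasm over chromatin it was -0.50, -0.19 and -0.38 in the 53 genes and -0.61, -0.44 and -0.57 in protein-coding genes. For nucleoplasm over cytoplasm it was -0.029, 0.056 and 0.19 and 0.28, 0.28 and 0.61. Longer members lay further to the chromatin side, as longer genes did in general, and their lead of nucleoplasm over cytoplasm showed little relation to span. These are descriptions across genes of the same libraries, and genes are not independent replicates. Lamb2, with a span of 10669 bases, and Lama5, with 49487 bases, lay on the nucleoplasm side in all 3 cell types, and Col27a1 on the chromatin side.

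**Figure D5:**
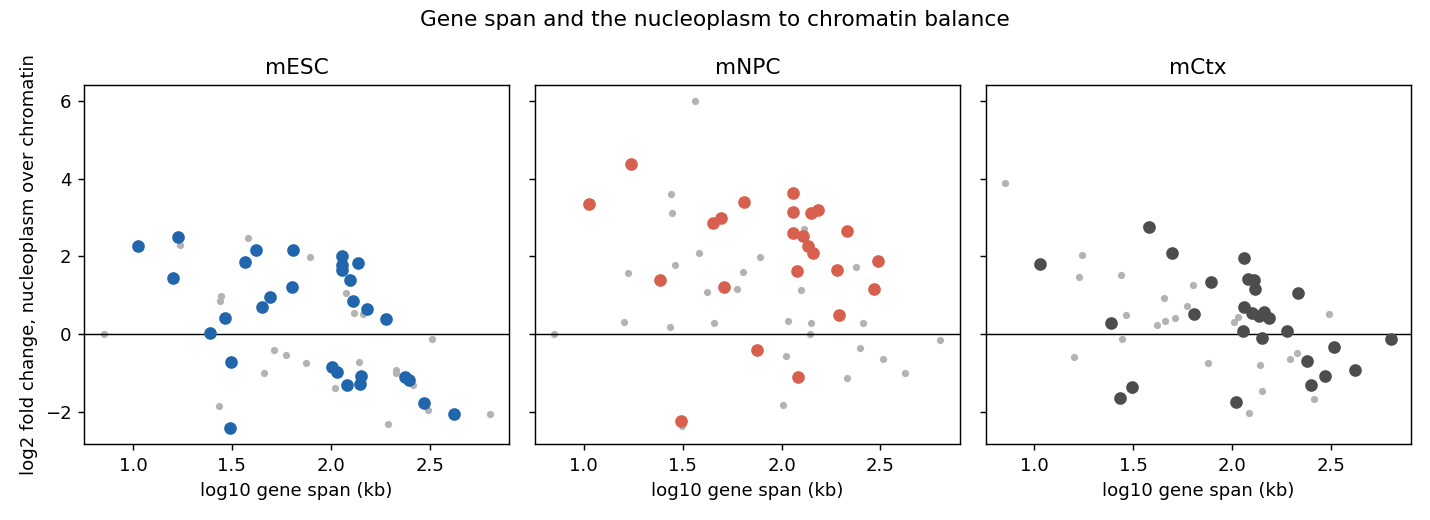
Log2 fold change of nucleoplasm over chromatin against log10 of the gene span in kilobases, with 1 panel per cell type, 1 point per gene tested, and large coloured points for genes at 5 CPM or more in that cell type. In mESC the points fall from above 0 for short genes to below 0 for the longest, and in mNPC most coloured points lie above 0.

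Whether the balance itself differed between cell types was tested as the difference of 2 fraction contrasts. For nucleoplasm over cytoplasm, from mNPC to mCtx 0 genes had a higher ratio (18.6%) and 23 a lower one (19.3%), with a median of -1.50 against 0.00 over all genes. The split turned with the measure: log2(TPM + 1) gave 15 higher and 9 lower, and TPM with each library divided by its median ratio to the mean library gave 6 higher and 17 lower. From mESC to mNPC 12 genes had a higher ratio (11.6%) and 2 a lower one (12.6%), with a median of 0.56 against -0.052, and from mESC to mCtx 3 genes had a higher ratio (23%) and 13 a lower one (23.1%), with a median of -0.57 against -0.033. In either direction 14, 23 and 16 of the 53 passed in the comparisons from mESC to mNPC, mNPC to mCtx and mESC to mCtx, against 24.2%, 37.9% and 46.1% of all genes. On the log2(TPM + 1) scale the splits from mESC to mNPC and to mCtx were 8 higher and 9 lower, and 16 higher and 9 lower. The largest falls from mNPC to mCtx were Col6a1 with -3.35 ± 0.75 (SE, adjusted p = 0.000696), Lama1 with -2.74 ± 0.75 (SE, adjusted p = 0.00465) and Col5a3 with -2.63 ± 0.55 (SE, adjusted p = 4e-04). For Lama1 the value by log2(TPM + 1) was 0.91. Lamc1 fell by 2.45 ± 0.17 (SE, adjusted p = 5.75e-11) and Lamb1 by 1.69 ± 0.17 (SE, adjusted p = 1.72e-08).

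For chromatin over cytoplasm the counts turned on the scaling. From mESC to mNPC 3 genes had a higher ratio (16.7%) and 13 a lower one (23.5%), from mNPC to mCtx 4 genes had a higher ratio (12.2%) and 8 a lower one (21.8%), and from mESC to mCtx 2 genes had a higher ratio (17.7%) and 10 a lower one (32.5%). In either direction 16, 12 and 12 of the 53 passed in the comparisons from mESC to mNPC, mNPC to mCtx and mESC to mCtx, against 40.2%, 34% and 50.2% of all genes. Total-count scaling gave 1 higher and 16 lower, 1 higher and 19 lower and 1 higher and 33 lower. Median-ratio size factors gave 6 higher and 2 lower from mNPC to mCtx and 2 and 4 from mESC to mCtx, and DESeq2 gave 8 and 5 and then 2 and 5. With the replicate number as a block, 23 genes passed from mESC to mCtx in place of 12. Without library 1 of mESC cytoplasm 21 passed there, and without library 1 of mNPC cytoplasm 9 in place of 16 from mESC to mNPC. Col4a1 and Lamb1 stood on the chromatin side in mCtx relative to mNPC, with 1.75 ± 0.31 (SE, adjusted p = 8.9e-05) and 1.18 ± 0.18 (SE, adjusted p = 1.06e-05), both kept when any 1 library was left out. Lama5 lay further to the cytoplasm in mCtx than in mESC by -1.80 ± 0.34 (SE, adjusted p = 9.44e-05), and Lama2 by -3.41 ± 0.43 (SE, adjusted p = 2.57e-07). For Lama5, log2(TPM + 1) gave -0.80 and log2(TPM + 0.1) gave 0.58.

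A list of 54 other genes of the same pathway, chosen by function and all tested, was described beside the members. In nucleoplasm over cytoplasm, 43 were higher and 2 lower in mESC (median 2.38), 48 and 0 in mNPC (2.39), and 30 and 3 in mCtx (0.72). Over all genes tested, 29.9% were higher and 33.2% lower in mESC, while mNPC had 22.6% and 27.5%, and mCtx 29.6% and 28.6%. Higher in nucleoplasm in mESC, mNPC and mCtx were 7, 8 and 5 of 8 basement membrane partners, 13, 15 and 8 of 15 genes of collagen modification, 8, 11 and 7 of 12 of processing and cross-linking, 10, 10 and 9 of 13 receptors and 5, 4 and 1 of 6 of turnover. Serpinh1, the collagen chaperone HSP47, averaged 159.9, 1068 and 50.7 CPM in nucleoplasm of mESC, mNPC and mCtx, and its change over cytoplasm was 3.05 ± 0.16, 1.88 ± 0.15 and -0.46 ± 0.15, with adjusted p = 0.0102 for the last. The linkers Nid1 and Nid2 averaged 202 and 558 CPM in mESC nucleoplasm, 27.1 and 69.1 in mNPC, and 14.5 and 4.78 in mCtx. Agrn, the heparan sulfate proteoglycan agrin, and Itgb1, the common laminin- and collagen-receptor subunit, were highest in mNPC, at 1678 and 1633 CPM. From mNPC to mCtx the ratio of nucleoplasm to cytoplasm was lower for 38 of the 54 and higher for 0, against 19.3% and 18.6% of all genes.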

How the data were processed

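RNA of 27 libraries was sequenced as 100 bp paired-end reads from stranded, rRNA-depleted libraries, per the labels' protocols. STAR, kallisto, featureCounts and the mm10 build are named in the submitters' processing notes, without version or role. The authors deposited read counts per gene and TPM per gene. All count columns hold whole numbers, and the deposited chromatin columns, handled as estimated counts, needed no rounding. The length given with the counts equals the gene span in every row, so introns were taken as counted. Whether counting used strand is not given in the sources used here, and 8 members overlap another gene on the same strand.

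Members were selected by symbol and biotype in GENCODE vM21. They and all gene and marker lists were chosen with earlier results of these data known. Counts of all genes were fitted with edgeR 4.0.16 (R 4.3.3; filterByExpr, trimmed-mean scaling, quasi-likelihood test, 9 groups, 18 residual degrees of freedom), with Benjamini-Hochberg adjustment over 18249 genes at 0.05. DESeq2 1.42.0 and limma 3.58.1 on log2(TPM + 1), for genes at a mean of 0.1 TPM or more, were alternatives, and the scripts were tested on simulated data. Named genes were 8 chains set by name, the 3 highest per group, the 3 largest changes per direction among called genes at 5 CPM or more, and those called in opposite directions in different cell types. The remaining members are given by level, except 1 that is not reported here. Replicate numbers paired the mESC libraries across fractions, by correlations of 0.28 to 0.66 in their deviations. Sequences came from RefSeq GRCm38.p6. Figures were drawn with matplotlib 3.10.9.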

Additional observations from a re-analysis of the deposited data

Results flagged for a closer look

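Members are listed here because their fraction balance differed between 2 cell types by edgeR's test of the interaction, with p-values adjusted over all genes tested. They are those with the largest differences in each direction among genes at 5 CPM or more. Groups of 3 libraries were not tested for outlying samples. Each value is a difference between cell types in the log2 fold change of a fraction over cytoplasm.

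For nucleoplasm over cytoplasm, the differences from mESC to mNPC were 5.04 for Col28a1, 2.34 for Col26a1, 2.29 for Col2a1, the main cartilage chain, -0.96 for Col4a2 and -0.53 for Lamb1. Col28a1 rests on 2 reads in mESC nucleoplasm, all in library 1, and was 7.66 without it. The Col4a2 call was lost when any of 9 of the 12 libraries was left out, with the smallest value, -0.41, without library 1 of mESC nucleoplasm. The Lamb1 call was lost without that library (-0.38), library 1 of mNPC nucleoplasm or library 3 of mNPC cytoplasm. By log2(TPM + 1) Col2a1 was -0.37, of the opposite sign. From mNPC to mCtx the differences were -3.35 for Col6a1, -2.74 for Lama1 and -2.63 for Col5a3. From mESC to mCtx they were 1.92 for Col6a5, 1.27 for Col7a1, the anchoring fibril collagen, -4.10 for Lamb3, -3.50 for Col6a3 and -2.82 for Col9a2. Col6a5 lost its call without library 3 of mESC cytoplasm or library 2 of mCtx nucleoplasm or cytoplasm (1.35 to 1.61), and Col7a1 without library 2 of mCtx nucleoplasm (1.10). Lamb3 was -2.61 without library 1 of mESC nucleoplasm and -4.90 without library 1 of mESC cytoplasm. Col6a3 had 0 reads in mESC cytoplasm, so its fitted difference depends on the prior count and is no bound, and Col9a2 had 3 reads in mCtx nucleoplasm. By log2(TPM + 1) Col6a3, Col7a1, Col9a2 and Lamb3 were 0.77, -0.11, 0.0030 and 1.24, each of the opposite sign. For Lamb3 the TPM and the counts also disagree in level within mCtx chromatin.

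For chromatin over cytoplasm, the differences from mESC to mNPC were 2.04 for Col7a1, 1.19 for Col9a2, -4.25 for Col13a1, -3.11 for Col4a5 and -2.97 for Col25a1. Col13a1 had 1 read in mNPC chromatin, and its call was lost without library 1 of mNPC cytoplasm (-0.55) or library 2 or 3 of mNPC chromatin, and was -6.07 without library 1 of mNPC chromatin and -4.85 without library 2 of mNPC cytoplasm. That of Col25a1 was lost when any of 8 of the 12 libraries was left out, with the smallest value, -1.29, without library 1 of mNPC cytoplasm. That of Col9a2 was lost without library 1 of mNPC chromatin (0.97). Col4a5 was -4.82 without library 1 of mESC cytoplasm. From mNPC to mCtx they were 1.75 for Col4a1, 1.40 for Col26a1, 1.18 for Lamb1, -2.15 for Lama1, -1.49 for Col19a1 and -1.30 for Lama2. Lama1, Col19a1 and Lama2 lost the call when any of 8, 8 and 10 of the 12 libraries was left out, and Lama2 was -0.84 without library 3 of mNPC cytoplasm. By log2(TPM + 1) these 3 were 0.54, 0.85 and 0.028, of the opposite sign. From mESC to mCtx they were 1.99 for Col7a1, 1.04 for Lama3, -3.41 for Lama2, -1.84 for Col25a1 and -1.80 for Lama5. Lama3 lost its call when any of 8 libraries was left out, and Col25a1 without library 1 of mESC chromatin or library 2 or 3 of mESC cytoplasm (-1.68 to -1.52).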

How the results depend on the processing

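Each comparison was refitted with other scaling (median-ratio size factors, total counts), without the low-count filter, with DESeq2, with the replicate number as a block, with the authors' TPM on the log2(TPM + 1) and log2(TPM + 0.1) scales, with TPM rescaled per library (chosen after seeing the data), and without each library in turn. Counts of members past the threshold moved by over 1.5 times in these cases, in which the cause was not tested. For nucleoplasm over cytoplasm in mESC, 36 members passed, and 21 with log2(TPM + 1), 21 with log2(TPM + 1) without the filter and 21 with rescaled TPM. For nucleoplasm over chromatin in mESC, 38 members passed, and 25 with log2(TPM + 1). For nucleoplasm over cytoplasm in mNPC, 36 members passed, and 20 with log2(TPM + 1), 21 with log2(TPM + 1) without the filter and 23 with rescaled TPM. For chromatin over cytoplasm in mCtx, 28 members passed, and 43 with log2(TPM + 0.1). For mNPC over mESC in cytoplasm, 36 members passed, and 19 with log2(TPM + 1), 19 with log2(TPM + 1) without the filter and 22 with rescaled TPM. For mCtx over mNPC in cytoplasm, 41 members passed, and 13 with log2(TPM + 1), 20 with log2(TPM + 0.1), 11 with log2(TPM + 1) without the filter and 16 with rescaled TPM. For mCtx over mESC in cytoplasm, 40 members passed, and 16 with log2(TPM + 1), 25 with log2(TPM + 0.1), 16 with log2(TPM + 1) without the filter and 19 with rescaled TPM. Of all 31006 genes tested with rescaled TPM in cytoplasm, 12937 passed for mNPC over mESC, 11292 for mCtx over mNPC and 15124 for mCtx over mESC. For mCtx over mESC in chromatin, 44 members passed, and 29 with rescaled TPM. For the chromatin/cytoplasm ratio of mCtx over mNPC, 12 members passed, and 20 with total counts, 21 with log2(TPM + 1), 19 with log2(TPM + 0.1), 22 with log2(TPM + 1) without the filter and 19 with rescaled TPM. For the chromatin/cytoplasm ratio of mCtx over mESC, 12 members passed, and 6 with median-ratio size factors, 34 with total counts, 23 with the replicate block, 7 with DESeq2, 23 with log2(TPM + 1) and 22 with log2(TPM + 1) without the filter. For the nucleoplasm/cytoplasm ratio of mCtx over mESC, 16 members passed, and 25 with log2(TPM + 1). Single libraries left out gave 34 to 43 for chromatin over cytoplasm in mESC, 31 to 35 for nucleoplasm over cytoplasm in mESC, 31 to 38 for nucleoplasm over chromatin in mESC, 24 to 31 for chromatin over cytoplasm in mNPC, 35 to 36 for nucleoplasm over cytoplasm in mNPC, 30 to 32 for nucleoplasm over chromatin in mNPC, 26 to 28 for chromatin over cytoplasm in mCtx, 29 to 32 for nucleoplasm over cytoplasm in mCtx, 19 to 22 for nucleoplasm over chromatin in mCtx, 33 to 35 for mNPC over mESC in cytoplasm, 44 to 47 for mNPC over mESC in chromatin, 42 to 44 for mNPC over mESC in nucleoplasm, 34 to 36 for mCtx over mNPC in cytoplasm, 35 to 37 for mCtx over mNPC in chromatin, 39 to 41 for mCtx over mNPC in nucleoplasm, 38 to 40 for mCtx over mESC in cytoplasm, 41 to 43 for mCtx over mESC in chromatin, 43 to 46 for mCtx over mESC in nucleoplasm, 9 to 17 for the chromatin/cytoplasm ratio of mNPC over mESC, 11 to 16 for the nucleoplasm/cytoplasm ratio of mNPC over mESC, 9 to 10 for the chromatin/cytoplasm ratio of mCtx over mNPC, 23 to 25 for the nucleoplasm/cytoplasm ratio of mCtx over mNPC, 8 to 21 for the chromatin/cytoplasm ratio of mCtx over mESC, 13 to 21 for the nucleoplasm/cytoplasm ratio of mCtx over mESC. The lowest value of the chromatin/cytoplasm ratio of mNPC over mESC, 9, came without library 1 of mNPC cytoplasm, and the highest of mCtx over mESC, 21, without library 1 of mESC cytoplasm.

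The replicate block was taken as pairing only for the mESC fraction comparisons, where same-numbered libraries correlated at 0.28 to 0.66 in their deviations. Elsewhere same-numbered libraries correlated at -0.058 to 0.19. The labels do not say what a replicate number shares, so whether those libraries are paired is not known. The block changed none of 201 calls of single members, moved 1 of 24 counts of members passed, the chromatin/cytoplasm ratio of mCtx over mESC from 12 to 23, and moved 8 of 48 counts by direction.

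The following members changed sign, all but Col4a1 for mCtx over mESC in chromatin between counts over gene spans, introns included, and TPM. Where rescaled TPM is not named for a member, it did not reverse the sign of the counts, so those changes appeared only in TPM not rescaled per library. Col1a1 for nucleoplasm over chromatin in mESC was 2.50 by counts (1.503 without library 1 of mESC nucleoplasm) and -0.47 by log2(TPM + 1) with or without the filter, -1.08 by log2(TPM + 0.1) and -0.14 by rescaled TPM. Col26a1 for chromatin over cytoplasm in mNPC was -1.48 by counts and 0.15 by log2(TPM + 1) with or without the filter and 0.19 by log2(TPM + 0.1). Lama5 for nucleoplasm over chromatin in mCtx was 2.08 by counts and -0.37 by log2(TPM + 1) with or without the filter, -0.56 by log2(TPM + 0.1) and -0.12 by rescaled TPM. Col18a1 for nucleoplasm over chromatin in mCtx was 1.96 by counts and -0.072 by log2(TPM + 1) with or without the filter and -0.087 by log2(TPM + 0.1). Col7a1 for the chromatin/cytoplasm ratio of mNPC over mESC was 2.04 by counts and -0.74 by log2(TPM + 1) with or without the filter, -0.077 by log2(TPM + 0.1) and -0.18 by rescaled TPM. Col4a5 for the chromatin/cytoplasm ratio of mNPC over mESC was -3.11 by counts and 0.80 by log2(TPM + 1) with or without the filter, 0.66 by log2(TPM + 0.1) and 0.55 by rescaled TPM. Col2a1 for the nucleoplasm/cytoplasm ratio of mNPC over mESC was 2.29 by counts and -0.37 by log2(TPM + 1) with or without the filter, -0.80 by log2(TPM + 0.1) and -0.23 by rescaled TPM. Lama1 for the chromatin/cytoplasm ratio of mCtx over mNPC was -2.15 by counts and 0.54 by log2(TPM + 1) with or without the filter, 1.32 by log2(TPM + 0.1) and 0.13 by rescaled TPM. Col19a1 for the chromatin/cytoplasm ratio of mCtx over mNPC was -1.49 by counts and 0.85 by log2(TPM + 1) with or without the filter, 1.11 by log2(TPM + 0.1) and 0.15 by rescaled TPM. Lama2 for the chromatin/cytoplasm ratio of mCtx over mNPC was -1.30 by counts and 0.028 by log2(TPM + 1) with or without the filter. Lama1 for the nucleoplasm/cytoplasm ratio of mCtx over mNPC was -2.74 by counts and 0.91 by log2(TPM + 1) with or without the filter, 1.80 by log2(TPM + 0.1) and 0.40 by rescaled TPM. Col7a1 for the chromatin/cytoplasm ratio of mCtx over mESC was 1.99 by counts and -0.019 by log2(TPM + 1) with or without the filter and -0.027 by rescaled TPM. Lama3 for the chromatin/cytoplasm ratio of mCtx over mESC was 1.04 by counts and -0.14 by log2(TPM + 1) with or without the filter. Col25a1 for the chromatin/cytoplasm ratio of mCtx over mESC was -1.84 by counts and 0.79 by log2(TPM + 1) with or without the filter, 0.15 by log2(TPM + 0.1) and 0.26 by rescaled TPM. Lama5 for the chromatin/cytoplasm ratio of mCtx over mESC was -1.80 by counts and 0.58 by log2(TPM + 0.1). Col7a1 for the nucleoplasm/cytoplasm ratio of mCtx over mESC was 1.27 by counts and -0.11 by log2(TPM + 1) with or without the filter and -0.15 by rescaled TPM. Lamb3 for the nucleoplasm/cytoplasm ratio of mCtx over mESC was -4.10 by counts and 1.24 by log2(TPM + 1) with or without the filter, 0.95 by log2(TPM + 0.1) and 0.54 by rescaled TPM. Col6a3 for the nucleoplasm/cytoplasm ratio of mCtx over mESC was -3.50 by counts and 0.77 by log2(TPM + 1) with or without the filter, 1.84 by log2(TPM + 0.1) and 0.46 by rescaled TPM. Col9a2 for the nucleoplasm/cytoplasm ratio of mCtx over mESC was -2.82 by counts and 0.0030 by log2(TPM + 1) with or without the filter, 0.079 by log2(TPM + 0.1) and 0.081 by rescaled TPM. Col4a1 for chromatin over cytoplasm in mNPC was 0.54 by counts and -0.14 by rescaled TPM. Lamb1 for nucleoplasm over chromatin in mCtx was 0.52 by counts and -0.37 by log2(TPM + 1) with or without the filter, -0.39 by log2(TPM + 0.1) and -0.018 by rescaled TPM. Col4a1 for mCtx over mNPC in nucleoplasm was -0.56 by counts and 1.58 by log2(TPM + 1) with or without the filter and 1.67 by log2(TPM + 0.1). Lamb1 for mCtx over mNPC in nucleoplasm was -1.38 by counts and 0.62 by log2(TPM + 1) with or without the filter and 0.68 by log2(TPM + 0.1). Col4a1 for mCtx over mESC in chromatin was 0.46 by counts and -0.33 by total counts. Lamb1 for mCtx over mESC in chromatin was -0.43 by counts and 0.57 by log2(TPM + 1) with or without the filter, 0.61 by log2(TPM + 0.1) and 0.33 by rescaled TPM. Col22a1 for nucleoplasm over chromatin in mESC was -1.11 by counts and 0.18 by log2(TPM + 1) with or without the filter, 0.31 by log2(TPM + 0.1) and 0.35 by rescaled TPM. Col22a1 for nucleoplasm over chromatin in mNPC was 1.72 by counts and -0.10 by log2(TPM + 1) with or without the filter and -0.46 by log2(TPM + 0.1). Col23a1 for nucleoplasm over chromatin in mNPC was 1.16 by counts and -0.31 by log2(TPM + 1) with or without the filter, -0.96 by log2(TPM + 0.1) and -0.080 by rescaled TPM. Col23a1 for nucleoplasm over chromatin in mCtx was -1.09 by counts and 0.023 by rescaled TPM. Col9a2 for nucleoplasm over cytoplasm in mESC was 0.82 by counts and -0.12 by rescaled TPM. Col9a2 for nucleoplasm over cytoplasm in mCtx was -1.99 by counts and 0.014 by log2(TPM + 1) with or without the filter and 0.093 by log2(TPM + 0.1). Precision for genes near 1 read per library is limited by depth.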

Other observations

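The members not described above held these levels. Col12a1, a fibril-associated collagen, was at 54.8, 48.4 and 50.1 CPM in mNPC nucleoplasm, 32.6, 26.6 and 31.1 in mCtx and 4.04, 1.44 and 0.354 in mESC. Col5a1, which pairs with Col5a2, was at 61.3, 72.0 and 56.6 CPM in mNPC nucleoplasm, 21.0, 20.6 and 18.1 in mCtx and 25.0, 25.5 and 13.7 in mESC. By counts all mNPC nucleoplasm libraries lay above those of the other cell types for both Col12a1 and Col5a1. In TPM as given, Col12a1 was instead higher in mCtx nucleoplasm, at 2.43, 1.64 and 1.86, than in mNPC, at 1.21, 0.67 and 1.18. For Col5a1 the TPM as given of the 3 cell types overlapped. The TPM scale, each library's median ratio to the mean library, was 1.74, 1.49 and 1.47 in mCtx nucleoplasm and 0.529, 0.309 and 0.478 in mNPC. With TPM divided by this scale, all mNPC nucleoplasm libraries were again highest for both genes. Col2a1 was at 6.39, 6.78 and 4.04 CPM in mESC nucleoplasm and Col9a2 at 17.7, 15.2 and 8.86. Col11a2, a chain of collagen XI, was at 6.21, 8.58 and 7.78 CPM in mCtx chromatin and 2.25, 2.93 and 2.06 in nucleoplasm, and Col22a1 at 22.1, 13.6 and 5.94 in mESC chromatin. Col7a1 was at 7.86, 9.19 and 10.1 CPM in mESC chromatin and 5.78, 4.64 and 5.95 in nucleoplasm, and Col9a1, a collagen IX chain, at 4.98, 6.41 and 5.73 in mNPC chromatin. Col8a1, a chain of endothelial and corneal collagen VIII, was at 7.40, 7.79 and 7.89 CPM in mCtx nucleoplasm. Col17a1 and Col8a2 did not reach a mean of 5 CPM in any group, and neither did Col6a2.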
